A study of Mus musculus with 24 samples.

Results

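The mature miRNAs mmu-miR-802-5p, mmu-miR-455-3p and mmu-miR-455-5p, called here without the species prefix, were followed in whole liver and in serum of mice with diet-induced steatohepatitis. They were taken by name from the probe annotation of the arrays, 3 of the 1881 mouse miRNAs there, each with 2 probes, and were grouped as hepatocyte-enriched miRNAs outside the miR-122, miR-192 and miR-193 clusters. Male C57BL/6NJcl mice were bought at 5 weeks of age and kept for 1 week before feeding began. The NASH (non-alcoholic steatohepatitis) groups received CDAHFD, a choline-deficient high-fat diet with methionine at 0.1%, and the control groups received CE-2 chow. Sampling of liver, and of blood drawn from the heart, followed 1, 2 or 6 weeks of feeding, when mice were 7, 8 or 12 weeks old. Each tissue, diet and week had 2 one-colour arrays, 24 in all, hybridised with 100 ng of labelled liver RNA or 2.5 ng of labelled serum RNA. The model is a purified diet set against a solid chow, so choline, methionine, fat and every other difference between the feeds act together. Whether a group's arrays stand for different mice is not given in its labels, and each p-value rests on array-to-array spread that may be technical.

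A miRNA guides the silencing complex to messenger RNAs that pair with its seed, the bases 2 to 8 from its 5′ end. miR-802 is known in mouse liver for rising in obesity, where it disturbs glucose handling. miR-455 is best known from cartilage and from brown fat differentiation, and its hairpin yields a mature miRNA from each arm. The tissues were not sorted into cells, so the arrays do not show which liver cells held any of the 3 miRNAs, and fewer cells of a type cannot be told apart from less RNA per cell.

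The mature sequences are shown because their seeds differ from each other, those of the miR-455 arms included. They are from RefSeq (GRCm38.p6), 5′ to 3′, with the seed in capitals.
miR-802-5p: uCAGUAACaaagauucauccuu
miR-455-3p: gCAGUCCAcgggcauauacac
miR-455-5p: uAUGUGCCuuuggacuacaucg
Both miR-455 arms come from Mir455 (chr4:63256851-63256932), miR-455-5p at chr4:63256867-63256888 and miR-455-3p at chr4:63256904-63256924, plus strand. The Mir455 gene lies inside the bounds of Col27a1 (chr4:63214009-63334991), which encodes a fibrillar collagen chain of cartilage. Mir802 (chr16:93369720-93369816, plus strand) overlaps no other gene of that annotation, and its neighbours are 1810053B23Rik before it and 1700029J03Rik after it. Its hairpin is shown with miR-802-5p in capitals, to place the measured arm.
Mir802 hairpin: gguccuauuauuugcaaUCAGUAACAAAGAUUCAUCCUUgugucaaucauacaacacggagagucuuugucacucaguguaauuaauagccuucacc
The opposite arm, miR-802-3p, was detected on 0 of 12 liver arrays and 0 of 12 serum arrays. Of 1679 mature names compared, 0 shared the seed of miR-802-5p and 0 that of miR-455-3p. The seed of miR-455-5p was shared by miR-5129-3p alone, which was detected on 0 arrays of either tissue.

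Levels are given as a percentage of the array's 75th percentile, the signal below which 75% of the probes well above background on every array of the tissue lay. A level therefore describes a miRNA relative to brighter miRNAs of the same array, and levels of different probes are not compared. The percentile itself differed with diet, NASH exceeding control by 0.43 (log2) in liver and 0.78 in serum, so unscaled signals are given where the scaling bears on a result. Between 337 and 379 miRNAs were detected on NASH liver arrays and between 253 and 307 on control liver arrays. In serum the numbers were 313 to 399 on NASH arrays and 235 to 362 on control arrays. On each slide NASH took columns 2 and 4 and control took columns 1 and 3, so position by column and diet cannot be told apart. The file flags called miR-455-3p detected on 12 of 12 liver arrays, miR-802-5p on 11 and miR-455-5p on 10, against 5, 0 and 2 of 12 serum arrays.

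In liver, miR-455-3p stood lower on every NASH array than on any control array. Its level was 4.09% and 4.52% on the week 1 NASH arrays, against 8.06% and 7.40% on the week 1 control arrays. At week 2 it was 5.28% and 5.06% in NASH livers, against 8.98% and 11.0% in control livers. At week 6 it was 4.05% and 3.65% in NASH livers, against 10.6% and 8.81% in control livers. The 6 NASH arrays thus lay between 3.65% and 5.28% and the 6 control arrays between 7.40% and 11.0%, and no pair of values crossed. On the log2 scale NASH minus control was -1.04 (SE 0.076) over the 3 weeks, 0.486 of the control level. By week the difference was -0.84, -0.95 and -1.33 (SE 0.13 each). The miRNAs were chosen by values of this liver contrast, known from earlier results, so it is a description and carries no test. It ranked 14 from the lowest of 388 liver miRNAs, of which 20.4% fell with the diet at an adjusted p below 0.05 (limma) and 10.6% had all 6 NASH arrays below all 6 control arrays.

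The separation did not need the scaling. The unscaled signal of miR-455-3p reached 35.5 at most on NASH liver arrays, against 39.0 at least on control liver arrays, and the unscaled log2 difference was -0.61. The share of all liver miRNAs separated on unscaled signal was not counted. The dimmer probe of this miRNA ran from 5.36 to 7.93 on NASH arrays, against 8.81 to 13.2 on control arrays, and did not overlap either. It was well above background on 2 of 12 liver arrays. Its ratio to the brighter probe stayed between 0.204 and 0.245 over the 12 arrays.

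**Figure D1:**
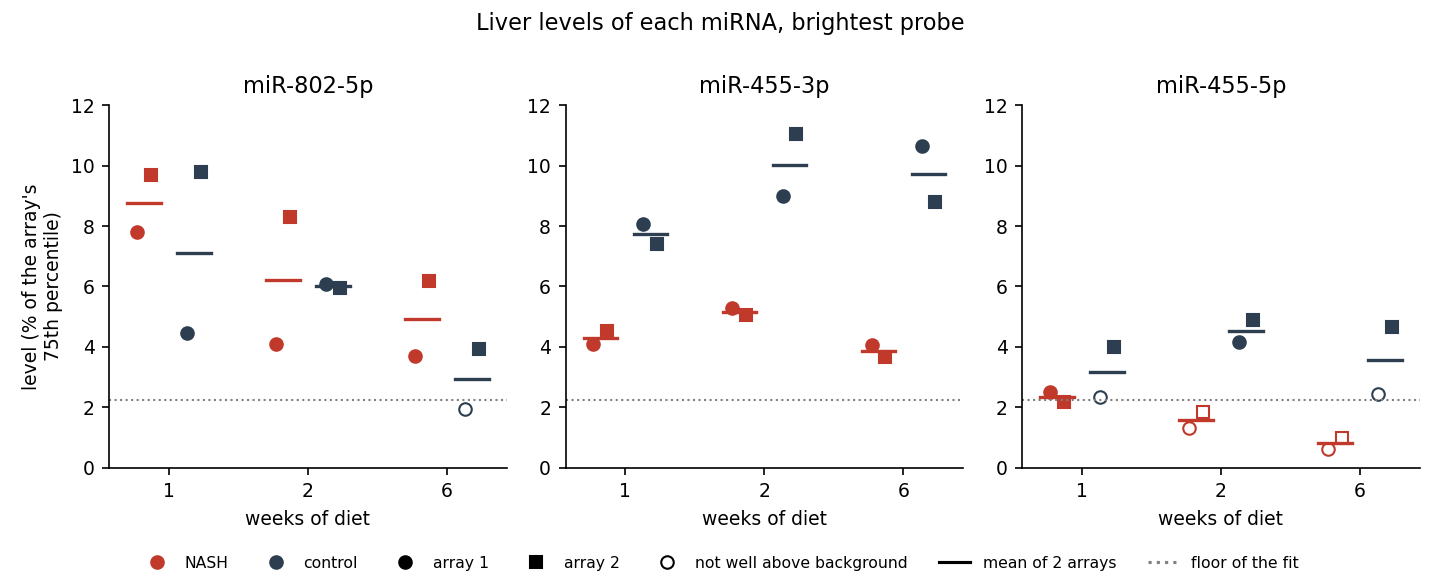
Liver level of each miRNA, as a percentage of the array's 75th percentile, by weeks of diet. Points are single arrays (red NASH, dark control; open points are not well above background), short lines are means of 2 arrays and the dotted line is the floor of the fit at 2.25%. miR-455-3p lies between 3.65% and 5.28% in NASH livers, below the 7.40% to 11.0% of control livers, while the diets overlap for miR-802-5p.

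miR-455-5p, from the other arm of the hairpin, met the limit of the assay in NASH livers. Its level at week 1 was 2.49% and 2.17% in NASH livers, against 2.35% and 3.99% in control livers. At week 2 it was 1.31% and 1.83% in NASH livers, against 4.16% and 4.89% in control livers. At week 6 it was 0.620% and 0.992% in NASH livers, against 2.44% and 4.67% in control livers. All 6 NASH values were below the control mean of their week, but the diets overlapped at week 1. The unscaled signal at week 1 averaged 18.1 in NASH livers and 17.6 in control livers, and the unscaled log2 difference was -0.031. None of the 4 NASH arrays of weeks 2 and 6 was well above background, meaning that fewer than 50% of the probe's spots stood clear of it. At week 2, where 2 of 2 control arrays were well above background, only a bound on the fold holds: the control level was at least 2.22-fold higher. At week 6, 1 of 2 control arrays was well above background, so no bound is given.

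The fit raises every value under 2.25% to that floor, which shortens the differences of miR-455-5p. With the floor its log2 difference was -0.65 (SE 0.20) over the weeks, -0.37 at week 1 and -0.59 at week 6 (SE 0.34 each), and the week 2 level in NASH livers was 0.498 of control. It ranked 41 from the lowest of 388. Leaving out 1 array moved the week 1 difference between -0.80 (without control array 1) and -0.0067 (without control array 2), and the week 6 difference between -1.11 (without control array 1) and -0.083 (without control array 2). The dimmer probe was well above background on 0 of 12 liver arrays.

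The arms could be set against each other in control livers only, where miR-455-5p minus miR-455-3p was -1.33 ± 0.50 on the log2 scale (SD, n = 6). This is a probe difference that says nothing of the ratio of the molecules. In NASH livers 5 of 6 miR-455-5p values were at the floor, so no difference of the arms and no correlation between them is given.

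miR-802-5p gave no such separation in liver. Its level at week 1 was 7.81% and 9.69% in NASH livers, against 4.47% and 9.77% in control livers. At week 2 it was 4.11% and 8.31% in NASH livers, against 6.09% and 5.95% in control livers. At week 6 it was 3.70% and 6.17% in NASH livers, against 1.94% and 3.92% in control livers, and the lowest of these, on control array 1, was the single liver array not well above background. The diets overlapped, with NASH arrays from 3.70% to 9.69% and control arrays from 1.94% to 9.77%, and 5 of 6 NASH arrays lay above the control mean of their week. The log2 difference was 0.35 (SE 0.30) over the weeks and 0.40, -0.043 and 0.69 by week (SE 0.53 each), all described without a test. It ranked 293 from the lowest of 388, and its direction turned to -0.14 with normexp background correction. Leaving out control array 1 of week 1 turned the week 1 difference to -0.21, and leaving out NASH array 1 of week 2 turned the week 2 difference to 0.47.

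Arrays of 1 group differed widely in miR-802-5p. The scaled level was higher on array 2 than on array 1 in 5 of 6 diet and week groups, and the unscaled signal in 4 of 6. The scaled gap reached 1.13 log2 units in week 1 control livers. Array 2 was always in the second slide row, so array and row cannot be told apart. In week 1 control livers the brighter probe gave a signal of 21.6 on array 1 and 58.2 on array 2, and the dimmer probe 11.0 and 30.1. The ratio of the dimmer to the brighter probe stayed between 0.455 and 0.592, while the brighter probe's spots on 1 array varied by a median of 10.6% (coefficient of variation). miR-802-5p correlated with the array's 75th percentile at r = 0.59 over the 12 liver arrays and at r = 0.78 within groups. For miR-455-3p these were r = -0.79 and r = -0.73; the percentile is also the divisor of each level. The part of array brightness in these spreads was not tested.

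**Figure D2:**
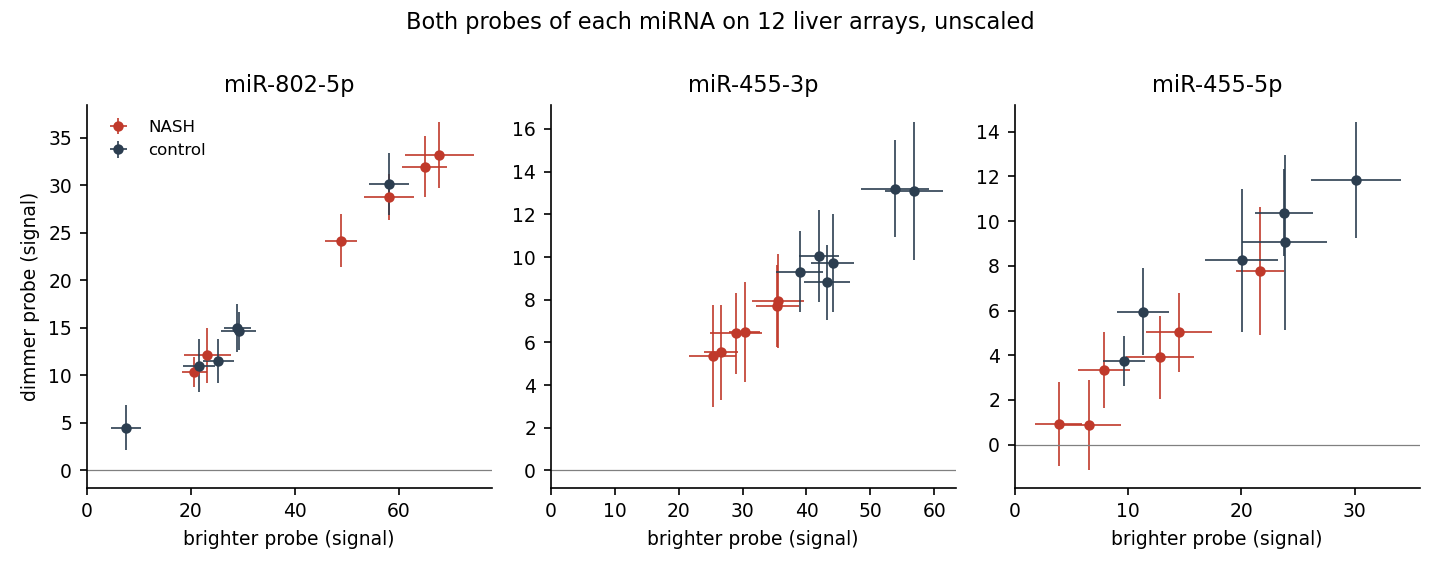
Unscaled signal of the dimmer probe against the brighter probe of each miRNA on 12 liver arrays (red NASH, dark control), with bars of 1 SD over the spots of an array. The probes of miR-802-5p rise together from 7.63 to 67.8 on the brighter probe, and those of miR-455-3p place the 6 NASH arrays below the 6 control arrays on both axes.

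**Figure D3:**
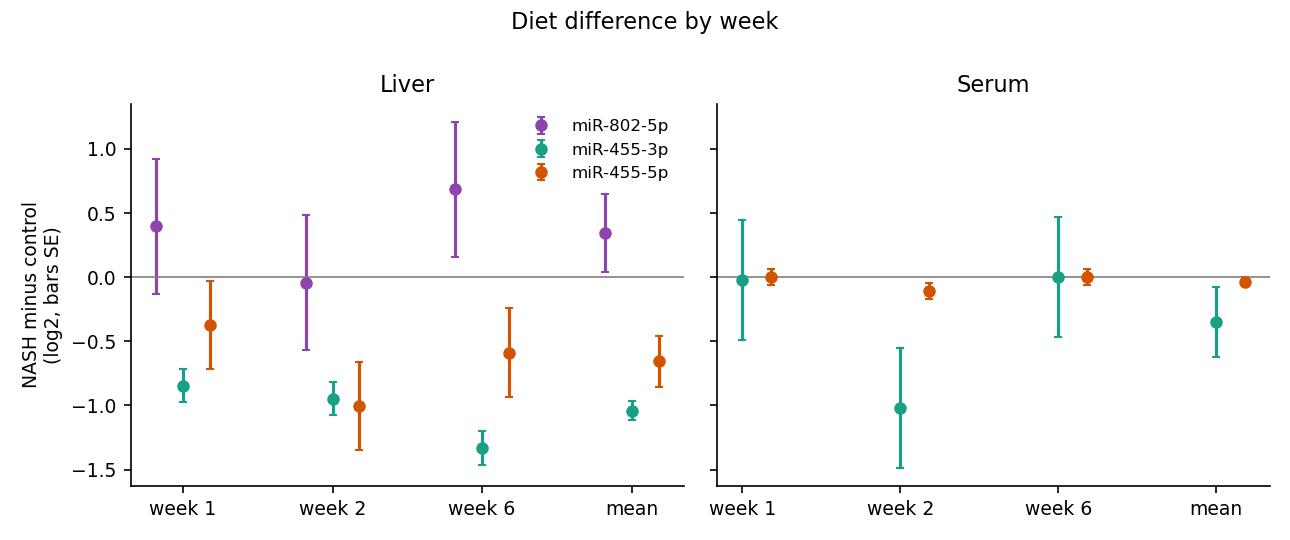
NASH minus control difference on the log2 scale by week and over the 3 weeks, with SE bars from limma, in liver and in serum. In liver miR-455-3p lies between -0.84 and -1.33 in every week; the miR-455 arms in serum rest largely on the floor, and miR-802-5p was not tested there.

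With time on a diet, no member passed in either diet. Liver weeks 6 and 2 shared a slide. Between them miR-455-3p differed by -0.43 (SE 0.13) in NASH livers, with an adjusted p of 0.178 over 388 miRNAs (limma), and by -0.040 in control livers (adjusted p = 1). miR-802-5p differed by -0.29 (SE 0.53, adjusted p = 1) in NASH livers and by -1.02 (SE 0.53, adjusted p = 0.491) in control livers. miR-455-5p was at the floor on all 4 NASH arrays of these weeks and differed by -0.42 (SE 0.34, adjusted p = 0.770) in control livers. Of all liver miRNAs, 3.35% passed between these weeks in NASH and 0.515% in control. The count in NASH, 13, ran from 4 (without week 6 control array 1) to 29 (without week 6 NASH array 1) leaving out 1 array, and from 0 to 15 under the other settings.

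Between weeks 6 and 1, on different slides, slide and week cannot be told apart. miR-802-5p was lower at week 6 by -0.86 (SE 0.53, adjusted p = 0.355, limma) in NASH livers and by -1.15 (SE 0.53, adjusted p = 0.830) in control livers. miR-455-3p differed by -0.16 (adjusted p = 0.534) in NASH livers and by 0.33 (adjusted p = 0.762) in control livers. For miR-455-5p the differences were -0.075 in NASH livers and 0.14 in control livers, each with an adjusted p of 1. The NASH difference is cut short by the floor, where 1 of 2 arrays lay at week 1 and 2 of 2 at week 6. The measured NASH mean was 2.33% at week 1 and 0.806% at week 6, where 0 of 2 arrays were well above background. In these weeks 12.4% of liver miRNAs passed in NASH and 0.515% in control.

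In serum miR-802-5p was not measurable. It was detected on 0 of 12 arrays, and its signal ran from 1.02 to 7.62 on NASH arrays and from 0.437 to 2.39 on control arrays, where negative control spots had medians of 2.62 to 3.42. With 2.5 ng of serum RNA labelled against 100 ng of liver RNA, this says that it was not detectable here, not that it is absent. It was not in the serum limma fit, which held miRNAs detected on at least 2 arrays.

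Both miR-455 arms were near background in serum, with lower readings in NASH. miR-455-3p measured 1.09% and 1.40% in week 1 NASH serum, against 3.94% and 2.97% in week 1 control serum. At week 2 it was 1.20% and 3.06% in NASH serum, against 4.32% and 13.9% in control serum. At week 6 it was 0.316% and 0.972% in NASH serum, against 3.56% and 3.50% in control serum. NASH arrays were below both control arrays in 3 of 3 weeks, although the diets overlapped across weeks. The share of all serum miRNAs with this order was not counted. In the exact permutation test described below, 26.8% of serum miRNAs were lower at p below 0.05 on scaled levels, and 4.69% on unscaled signal. On unscaled signal this held in 2 of 3 weeks, since at week 2 NASH serum gave 4.65 and 11.4, against 9.92 and 20.0 in control serum. The probe was well above background on 0 of 6 NASH arrays and 3 of 6 control arrays, so no bound on the fold is given over the weeks.

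miR-455-5p measured 1.23% and 0.947% in week 1 NASH serum, against 3.13% and 2.99% in week 1 control serum. At week 2 it was 0.972% and 0.665% in NASH serum, against 2.19% and 4.42% in control serum. At week 6 it was 0.233% and -0.101% in NASH serum, against 1.33% and 0.667% in control serum, the negative value being a signal under the subtracted background. NASH was again below both control arrays in 3 of 3 weeks, an order whose share over all serum miRNAs was not counted. At week 6 this is an order among background readings. The signals there ran from -0.412 to 2.23, under the negative control medians of 2.62 to 3.42 on serum arrays. It was well above background on 0 of 6 NASH arrays and 1 of 6 control arrays.

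In the limma fit neither arm passed for diet in serum. All 6 NASH arrays of both arms were at the serum floor of 3.81%, as were 3 of 6 control arrays of miR-455-3p and 5 of 6 of miR-455-5p. The difference was -0.35 (SE 0.27, adjusted p = 0.482) for miR-455-3p and -0.036 (SE 0.035, adjusted p = 0.551) for miR-455-5p. That of miR-455-5p rests on week 2 control array 2 alone, at 4.42%, so its p cannot tell whether the diets differ. Of 426 serum miRNAs 18.8% passed, 4.93% higher and 13.8% lower. A limma F test of whether the serum diet difference varied by week gave an adjusted p of 0.737 for each arm, where 0.469% of serum miRNAs passed. Without week 2 control array 1 the difference was -0.63 for miR-455-3p and -0.075 for miR-455-5p. Without week 2 control array 2 it was -0.053 for miR-455-3p. These fits leave 1 array in that group and values largely at the floor, which shrinks the SE, so no p is given.

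A two-sided exact test on the measured levels with no floor, added after the values had been seen, permuted diet within weeks. The smallest p this design allows is 0.00926. miR-455-3p averaged 1.34% ± 0.92 in NASH serum and 5.37% ± 4.21 in control serum (SD, n = 6 each). Of its 5 serum detections, 4 were on control arrays and 1 on a NASH array. It reached the 2 detections required only through the diet where it was higher, so no p is given. miR-455-5p averaged 0.658% ± 0.503 in NASH serum and 2.46% ± 1.35 in control serum (SD, n = 6 each). Its 2 serum detections were both on week 1 control arrays. It entered the test only through the diet where it was higher, so no p is given. Of the 426 serum miRNAs 26.8% had an exact p below 0.05 in the lower direction and 9.62% in the higher one. miR-802-5p averaged 0.645% ± 0.365 in NASH serum and 0.504% ± 0.236 in control serum (exact permutation p = 0.491, n = 6 each).

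Without scaling the miR-455 arms kept their direction, and for the same reason no p is given for them. The signal of miR-455-3p averaged 5.88 ± 3.58 in NASH serum and 12.7 ± 6.11 in control serum (SD, n = 6 each). That of miR-455-5p averaged 3.16 ± 2.77 in NASH serum and 7.59 ± 6.74 in control serum (SD, n = 6 each). That of miR-802-5p averaged 3.05 ± 2.37 in NASH serum and 1.38 ± 0.84 in control serum (SD, n = 6 each; exact permutation p = 0.046, unadjusted), on a probe not well above background on any serum array. On unscaled signal 4.69% of serum miRNAs had an exact p below 0.05 in the lower direction and 30.3% in the higher one. The scaled level difference of miR-455-3p was -3.72 percentage points without week 2 NASH array 1 and -4.34 without week 2 NASH array 2.

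**Figure D4:**
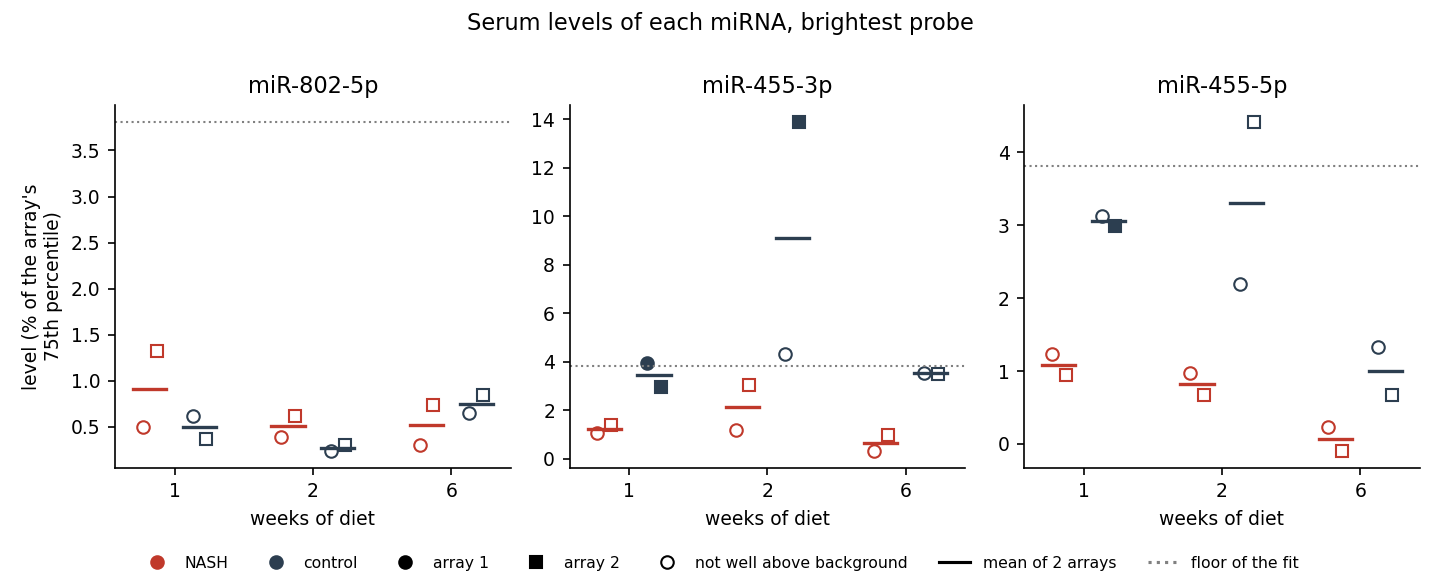
Serum level of each miRNA, as a percentage of the array's 75th percentile, by weeks of diet, on an axis of its own for each miRNA. Points are single arrays (red NASH, dark control; open points are not well above background), short lines are means of 2 arrays and the dotted line is the floor of the fit at 3.81%. Both miR-455 arms lie lower in NASH serum in each week, mostly under the floor.

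No week contrast of the miR-455 arms passed in serum. Between weeks 2 and 1, which shared a slide, miR-455-3p was at the floor on all NASH arrays and differed by 1.00 (SE 0.47, limma adjusted p = 0.480) in control serum. For miR-455-5p the control difference was 0.11 (SE 0.060, adjusted p = 0.480). In control serum 1.17% of miRNAs passed between these weeks. Between weeks 6 and 1, on different slides, the control differences were -0.023 for miR-455-3p and 0 for miR-455-5p, each with an adjusted p of 1.

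Liver was set against serum within each diet in 1 fit over the 24 arrays, with 1 scaling and a floor of 1.61%. miR-802-5p was detected on 0 serum arrays, so it entered this fit through liver alone. In each diet 0 of 6 serum arrays were above the floor, so no liver value could lie below serum. Its differences are therefore given without a test. In NASH mice liver minus serum was 0.85 (SE 0.16), and liver was at least 1.67-fold higher as a bound, since 0 of 6 serum arrays were well above background. In control mice miR-802-5p differed by 0.32 (SE 0.16), and by 0.95 to 1.06 under 3 other scalings. On that scale its level was 3.04% ± 0.93 in NASH livers and 0.411% ± 0.239 in NASH serum, and 1.90% ± 0.79 in control livers and 0.328% ± 0.167 in control serum (SD, n = 6 each). Of 526 miRNAs 54.9% passed between tissues in NASH mice and 66.7% in control mice.

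miR-455-3p differed between liver and serum by 0.28 (SE 0.20, adjusted p = 0.287) in NASH mice and by 0.20 (SE 0.20, adjusted p = 0.421) in control mice (limma). Unscaled, quantile-normalized or scaled over all probes it passed in both diets, with differences from 0.64 to 1.12 in NASH mice and from 1.47 to 1.75 in control mice. It also passed without week 2 control serum array 2, with a limma adjusted p of 0.040 in NASH mice and 0.015 in control mice. The call therefore changed with the scaling, and tissue and amount of labelled RNA cannot be told apart. miR-455-5p was at the floor in every NASH array of both tissues. In control mice 0 of 6 liver and 3 of 6 serum arrays were above the floor, so no serum value could lie below liver. Its difference there, -0.20 (SE 0.063), is therefore given without a test, and its sign turned to 0.45 without scaling.

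The diet difference in serum minus that in liver, a description from the same fit, was -0.082 (SE 0.28) for miR-455-3p. There 1 of 6 NASH serum arrays was above the floor. For miR-802-5p it was -0.53 (SE 0.22). In each diet 0 of 6 serum arrays were above the floor, so this is the liver difference with its sign turned. For miR-455-5p it was -0.20 (SE 0.089). In each diet 0 of 6 liver arrays were above the floor, and 0 of 6 NASH serum arrays, so this value holds no liver difference.

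Most of the listed hepatocyte-enriched companions fell in liver, and in serum more of them rose than fell. Of 10 listed companions, 9 were tested in liver, where 8 fell and 1 rose, with a median difference of -0.98 against 0 over all liver miRNAs, of which 20.4% fell and 21.9% rose. miR-122-5p, the most abundant miRNA of hepatocytes, fell by 0.98 (adjusted p = 2.9e-05, limma), and miR-192-5p, which is also abundant in gut and kidney, fell by 1.26 (adjusted p = 4.4e-04). In serum 5 of 10 rose, 2 fell and 3 did not pass, with a median of 0.67 against -0.11 over all serum miRNAs, of which 4.93% rose and 13.8% fell. There miR-122-5p rose by 3.82 (adjusted p = 0.006) and miR-192-5p by 2.65 (adjusted p = 0.001), against -0.35 for miR-455-3p, which did not pass. The list was chosen with earlier results known, and nothing particular to it is read from these counts.

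Marker miRNAs of other cells moved with diet in both tissues, and their part in the values above was not tested. Of 6 leukocyte miRNAs 4 rose in liver and 0 fell, with a summed level of 282% to 426% on NASH arrays and 106% to 152% on control arrays. Of 5 miRNAs of stellate cells and fibroblasts 2 rose in liver, with sums of 104% to 168% in NASH and 73.1% to 97.5% in control. Of 3 red cell miRNAs 2 fell in liver, with sums of 115% to 426% in NASH and 370% to 667% in control. Both endothelial miRNAs fell in liver, 0 of 3 epithelial ones passed, and the islet miRNA miR-375-3p was detected on 0 liver arrays.

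miR-140, a miRNA of cartilage, was listed because miR-455 is also known from that tissue. In liver miR-140-3p rose by 0.54 (adjusted p = 1.8e-04, limma) and miR-140-5p differed by -0.012. In serum both fell, by 1.05 and 1.14 (adjusted p = 0.004 and 0.006), with sums of 104% to 205% in NASH and 213% to 529% in control. Also in serum, 2 of 3 red cell, 2 of 5 stellate, 2 of 3 epithelial, 3 of 6 leukocyte and the islet miRNA fell, 1 leukocyte miRNA rose and 0 of 2 endothelial ones passed, where 13.8% of all serum miRNAs fell and 4.93% rose.

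The miRNAs most like a member over the 12 liver arrays were ranked by Pearson's r of log2 values among those detected on every liver array. For miR-802-5p, among 218 compared, they were miR-106b-5p (r = 0.85), miR-128-3p (0.84), miR-130a-3p (0.79), miR-350-3p (0.79) and miR-1839-5p (0.75). Their own diet differences ran from -0.11 to 0.38. For miR-455-3p, among 217, they were miR-3963 (0.96), miR-3968 (0.94), miR-30e-3p (0.93), miR-6412 (0.93) and miR-5100 (0.93), with diet differences from -1.06 to -0.78. These points share arrays, scaling and the diet, and no test was made. miR-455-5p was well above background on 6 of 12 liver arrays, under the 8 required.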

How the data were processed

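The deposited files hold spot intensity from 1-colour (Cy3) arrays, per the file headers, read out by Agilent Feature Extraction 11.5 (submitters' processing notes). The column used, gProcessedSignal, has background subtracted but no scaling between arrays. Control and outlier-flagged spots were left out and spots of a probe averaged. Arrays were scaled by their 75th percentile over the 299 liver or 253 serum probes clear of background on every array of that tissue. Values were then raised to a floor, per tissue the median array's 5th percentile among scaled signals clear of background, and log2-transformed. The brightest probe stood for a miRNA. miRNAs detected on at least 2 arrays were tested (388 in liver, 426 in serum) with limma 3.58.1 in R 4.3.3 on 6 diet-by-week groups, with Benjamini-Hochberg adjustment over all tested. At the floor lay 35.6% of liver and 39.1% of serum values, so SE and p there can be too small. The number of arrays limits the precision. The fit was tested on simulated data. The members and lists were chosen with earlier results of these data known. The named miRNAs were the members, the 5 most correlated ones per member, companions in list order and seed sharers. Alternatives changed the signal column, background, scaling, floor, filter, probe, blocks and arrays; normexp used median spot and background signals.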

Additional observations from a re-analysis of the deposited data

Results flagged for a closer look

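In control serum 1 of 6 arrays stood far from the others for miR-455-3p: week 2 array 2 measured 13.9% of the array's 75th percentile, and the other control arrays lay between 2.97% and 4.32%. The gap was 0.877 of the whole range, above Dixon's critical value for 6 arrays, which chance passes in about 1 group in 20. That array also had the lowest 75th percentile of the serum arrays, a signal of 144, and detected 235 miRNAs. Its unscaled signal for miR-455-3p was 20.0, beside 19.1 on week 1 control array 2.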

How the results depend on the processing

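The liver difference of miR-455-3p stayed negative under every alternative run: it was -1.41 with the total gene signal, -0.57 with normexp, -1.26 with quantile normalization, -0.61 without scaling and -0.56 with the mean of probes. That of miR-455-5p was also negative throughout, at -1.47 with the total gene signal and, as alternatives chosen after seeing the data, -1.35 without a floor and -1.92 with the dimmer probe, which rest on NASH signals that were mostly not above background and measure no fold. miR-802-5p turned with normexp, to -0.14 over the weeks, -0.13 at week 1 and -0.14 at week 6, and without scaling to 0.25 at week 2. Leaving out 1 array gave it -0.21 to 0.96 at week 1 and -0.55 to 0.47 at week 2. In serum normexp, whose offset of 50 exceeds the serum signals of these miRNAs, passed 365 miRNAs, among them miR-455-3p (-0.50) and miR-455-5p (-0.41) for diet, and the control difference between weeks 2 and 1 of miR-455-3p (0.80) and miR-455-5p (0.64). The count called for diet in serum, 80, was 39 scaled over all probes, 44 without scaling, 35 without the detection filter and 48 to 118 leaving out 1 array (51 without NASH week 1 array 1, 49 without NASH week 2 array 1, 48 without NASH week 6 array 2). With the replicate block it was 23; NASH week 6 array 1 of serum, which has no label number, was left out there, and the block was not run for week contrasts. Same-numbered NASH and control arrays deviated together at r = -0.60, 0.42 and 0.49 in liver weeks 1, 2 and 6 and 0.55 and 0.14 in serum weeks 1 and 2. These values do not settle whether the numbers pair the arrays. With total gene signal miR-455-5p turned to -0.19 between control serum weeks 2 and 1, and to -0.23 without scaling. Leaving out 1 array gave miR-455-5p in control liver -0.88 to 0.095 between weeks 6 and 2. It gave the serum diet difference of miR-455-3p -0.63 to -0.053 and of miR-455-5p -0.075 to 0, and the control serum difference between weeks 2 and 1 0.092 to 1.86 and 0 to 0.22. Liver minus serum of miR-455-3p was 1.12 without scaling, 0.79 scaled over all probes and 0.64 with quantile normalization in NASH mice, and 1.56, 1.75 and 1.47 in control mice. In control mice miR-802-5p was 0.95, 1.05 and 1.06, and miR-455-5p turned to 0.45, 0.65 and 0.63. Leaving out 1 array gave miR-455-3p 0.21 to 0.35 in NASH mice and -0.049 to 0.42 in control mice, and miR-802-5p 0.20 to 0.43 in control mice. Slide as a random block could not be fitted, since each group lay on 1 slide. The serum level of miR-802-5p without a floor differed by 1.66 signal units without scaling (exact permutation p = 0.046, n = 6 each). That of miR-455-3p differed by -5.63 to -2.43 percentage points leaving out 1 array. The cause of these changes was not tested.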
